A study of Drosophila melanogaster with 4 samples.

Results

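The Iroquois complex is the stretch of chromosome arm 3L that holds araucan (ara), caupolican (caup) and mirror (mirr), together with the non-coding DNA between them. It was taken here as the 150 kb from 12.56 to 12.71 Mb of 3L in the dm3 build of the Drosophila melanogaster genome, and its members were the array probes that lie within these bounds. The locus held 1971 probes of 50 bp, out of 1870562 genome probes on the 2 array designs of the series and 935600 on design 1, which carries the whole locus. Occupancy by Myb was measured by chromatin immunoprecipitation and tiling array (ChIP-chip) in imaginal wing discs of male 3rd instar larvae of the yw67 (Yellow white) genotype, with 2 biological replicates, each hybridised to both designs for 4 arrays in all. On each array the Cy5 channel carried DNA immunoprecipitated with Myb and the Cy3 channel carried sonicated input DNA, so every value below is a log2 ratio of immunoprecipitate over input, set to 0 at the median of the genome probes of its array. All larvae were untreated and of 1 genotype and sex, the chromatin was pooled from many discs, and input was the only reference, without a mock precipitation or dye swap, so the results describe where Myb signal lay and compare no conditions.

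The Iroquois genes encode homeodomain transcription factors of the TALE class. In the wing disc ara and caup act as prepattern genes that set where proneural genes are switched on, and they help to form the notum and the wing veins, while mirr is best known for its part in the dorsal eye, the ovary and the alula. The cluster shares enhancers that are spread over large distances, and in flies it is a classical target of Polycomb group repression. Myb is a DNA-binding subunit of the Myb-MuvB complex, which occupies promoters of cell cycle genes and many other sites.

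By the Release 6 gene list the order along the arm is ara, caup, 4 long non-coding RNA genes (lncRNA:CR32111, lncRNA:CR43431, lncRNA:CR44553 and lncRNA:CR44552) and mirr. Only the first of these RNA genes could be placed in base pairs on the build of the arrays, with its transcript at chr3L:12635254-12635766 (513 bp), near the middle of the locus. This position came from the transcript table of the study's expression array, which gives no strand and names no build, and was read as dm3. The promoters of ara, caup and mirr therefore have no value of their own here. The DNA to the left of the lncRNA:CR32111 transcript, 75.3 kb, is referred to as the ara-caup side, and the 74.2 kb to its right as the mirr side, from gene order alone. The nearest placed transcripts outside were those of ver, which encodes a telomere-capping protein, 41.8 kb to the left, and of Klc, the kinesin light chain, 29.9 kb to the right. In the gene list, however, the next gene before ara is lncRNA:CR43612 and the next after mirr is SmD1. Neither had a transcript placed in the locus, and whether either reaches into its bounds is not known.

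Tiling was even, with a median of 66 bp between probe starts and no gap above 142 bp. Of the 1971 probes, 1957 had a value in both replicates. No probe of the locus was saturated, and 88 probes (4.50%) had at least 1 spot not well above background, against 2.46% on arm 3L. Over the 2 design 1 arrays 98.1% to 98.4% of input spots were well above background. The number of arrays limits the precision, since every spread below is over 2 replicates.

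Myb signal over the locus as a whole was modestly above the array median. The mean log2 ratio was 0.15 in replicate 1 and 0.34 in replicate 2 (mean 0.25 ± 0.14, SD, n = 2). Both replicates were thus above 0, and replicate 2 was the higher. The same means for arm 3L were 0.04 and 0.09 (0.06 ± 0.04), so the locus stood above its arm in each replicate. The 150 kb to the left had a higher mean than the locus, at 0.29 and 0.46 (0.37 ± 0.12), and the 150 kb to the right a lower one, at 0.11 and 0.17 (0.14 ± 0.04). The locus therefore lay between its flanks in each replicate, and the differences between these stretches carry no test, since each is 1 stretch of DNA seen in 2 replicates.

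The distribution of probe values in the locus was shifted upward in its middle and not at its top. The middle 50% of probes lay between -0.04 and 0.57 for the mean of both replicates, and the median was 0.27, while on arm 3L the middle 50% lay between -0.33 and 0.41, around a median of 0.01. At the top end the order turned, since the value above which the highest 5% of probes lay was 1.07 in the locus and 1.11 on the arm. In the locus 1076 of 1957 probes (55.0%) were above 0 in both replicates, against 38.2% on the arm. Across probes the replicates correlated with Pearson's r = 0.56 and Spearman's rho = 0.52 (n = 1957 probes, which share their libraries and overlap in DNA fragments and are not independent), and on arm 3L with r = 0.66. The median absolute difference between replicates was 0.40 per probe in the locus and 0.33 on the arm.

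Single probes were tested against 0 with limma over all 1865871 probes measured in both replicates, with Benjamini-Hochberg adjustment. In the locus 261 probes (13.3%) were enriched at an adjusted p below 0.05, where 9.77% were called over all probes of both designs and 11.0% over arm 3L. The left flank had 22.2% of its probes called and the right flank 12.1%, so the share of the locus was close to that of the arm and was not the highest in its neighbourhood. At an unadjusted p below 0.05, 565 probes of the locus (28.9%) were above 0, against 18.3% of all probes and 20.0% on arm 3L. The ara-caup side had 126 enriched probes (12.8%) and the mirr side 135 (13.9%). The means of the sides were 0.15 and 0.31 (0.23 ± 0.12) for the ara-caup side and 0.16 and 0.38 (0.27 ± 0.16) for the mirr side, which was the higher by a little in each replicate. The difference between the sides carries no test.

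The probe of highest ratio in the locus lay at chr3L:12685576-12685625, on the mirr side. Replicate 1 gave a log2 ratio of 2.98 and replicate 2 one of 2.53 (mean 2.75, limma adjusted p = 0.000597). The second highest probe, at chr3L:12564833-12564882 near the left end of the locus, gave 1.93 and 2.65, with input not well above background in part of its spots. Both probes were high in each replicate, and they lay far apart, on opposite sides of lncRNA:CR32111.

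**Figure D1:**
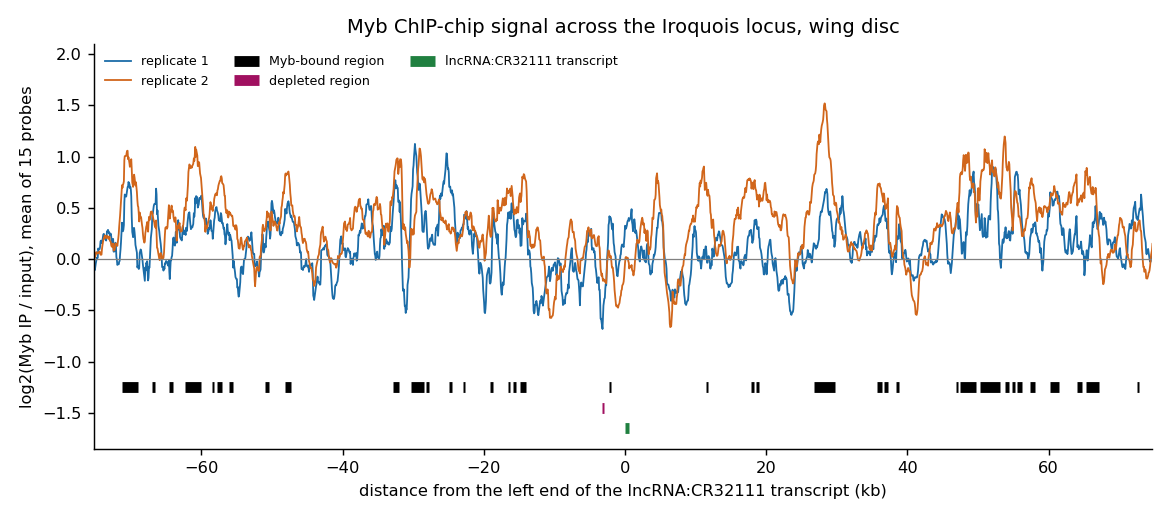
Running mean over 15 probes of log2(Myb IP / input) in replicate 1 (blue) and replicate 2 (orange), against the distance in kb from the left end of the lncRNA:CR32111 transcript. Black bars mark the 37 Myb-bound regions, the purple bar the depleted region, whose probes were all not above background, and the green bar the transcript. Bound regions are few on both sides of the transcript and dense from about 47 to 55 kb to its right.

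In the plot of the running mean the signal took the form of many short rises. By the neighbourhood rule, in which at least 4 significant probes with gaps of at most 300 bp make a region, 37 Myb-bound regions were found in the locus, and none crossed its ends. They covered 32.2 kb, or 21.4% of the locus, and held 433 probes (22.1%), against 19.0% of probes in bound regions over the 6 chromosome arms. On arm 3L the covered share was 17.1%. The locus thus had 24.7 regions per 100 kb where the arm had 13.6, while its regions were shorter, with a median of 552 bp against 780 bp. The left flank was denser, with 27.3 regions per 100 kb and 32.8% covered, and the right flank had 18.7 and 20.1%. Median lengths in the flanks, 616 bp on the left and 695 bp on the right, were also below that of the arm. Only 8 of the 37 regions (21.6%) were longer than 1 kb, against 40.7% of the 3339 regions of the arm, and the longest, 2978 bp, was well short of the 8102 bp of the longest region in the left flank. In number, short regions dominated the locus, but the 8 long ones made up 17.4 kb (54.0%) of the covered length.

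All 37 regions had a mean above 0 in each replicate, which the rule on the mean of both replicates favours and which is given as a description. Their means ran from 0.27 to 1.15 in replicate 1 and from 0.41 to 2.13 in replicate 2. Replicate 2 was the higher in 29 regions and replicate 1 in 8, and the median over regions of the mean of both replicates was 0.75, beside 0.78 for the regions of arm 3L. By replicate these medians were 0.61 and 0.85 in the locus and 0.76 and 0.84 on the arm, so the regions of the locus were the weaker in replicate 1 and alike in replicate 2. By limma 35 of the 37 regions held at least 1 enriched probe, and 194 of the 261 enriched probes (74.3%) lay in a region. Both calls rest on the same values, so these counts are a description and no separate evidence for the regions.

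**Figure D2:**
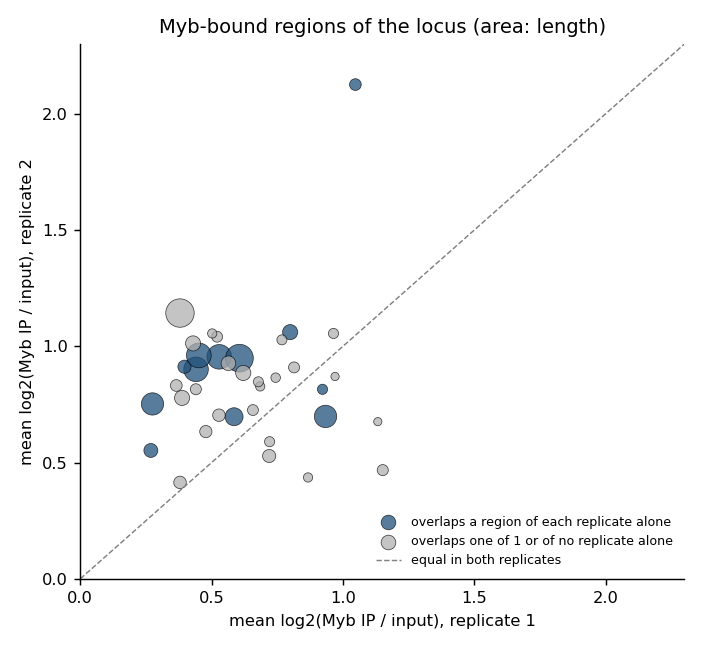
Mean log2(Myb IP / input) of each of the 37 Myb-bound regions in replicate 1 (x axis) and replicate 2 (y axis), with area in proportion to length and the dashed line at equal values. Dark points are the 12 regions that overlap a region called in each replicate alone, and 1 region stands apart at 1.05 and 2.13.

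The 2 replicates taken alone differed in how many regions they gave. Replicate 1 alone gave 16 regions and replicate 2 alone gave 47, of which 12 of the 16 (75.0%) and 10 of the 47 (21.3%) overlapped one of the other replicate. Of the 37 regions called on the mean, 12 overlapped a region of each replicate alone. With the mean p-value of neighbouring probes set below 0.01, 11 regions were left, and below 0.001 only 2 were left. The regions differed in how often they were recovered, each overlapping a region under 7 to 14 of the 14 alternative settings.

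**Figure D3:**
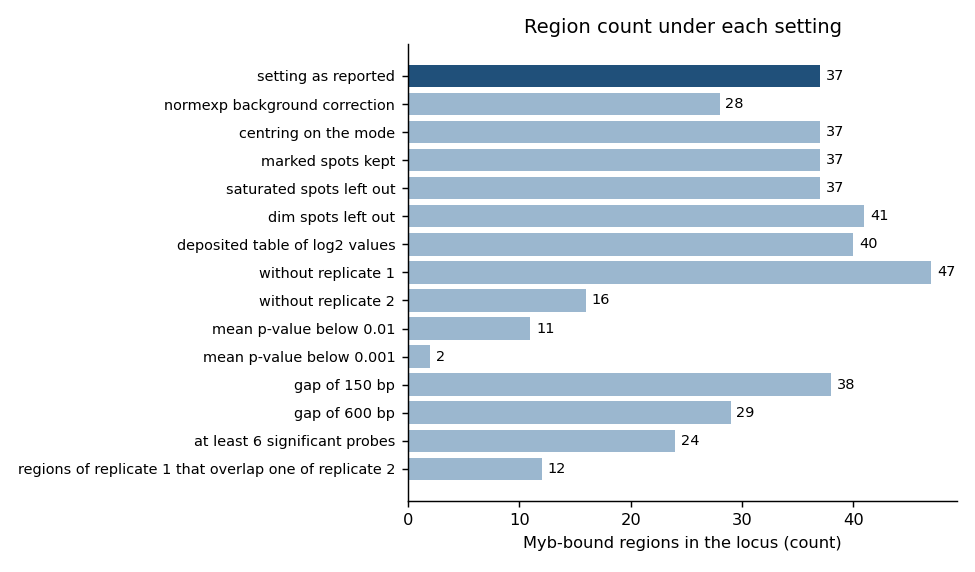
Number of Myb-bound regions in the locus (x axis) under the setting reported and each of 14 alternatives (y axis). Counts run from 2 at a mean p-value below 0.001 to 47 from replicate 2 alone, with 37 as reported.

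The region of highest mean lay on the mirr side at chr3L:12689078-12689586 (509 bp, 7 probes), about 54.1 kb to the right of the left end of lncRNA:CR32111. Its mean was 1.05 in replicate 1 and 2.13 in replicate 2 (1.59 ± 0.76). Probe by probe from left to right, replicate 1 gave 1.82, 1.22, 1.44, 0.62, 0.10, 0.95 and 1.18, and replicate 2 gave 1.44, 2.32, 2.40, 2.54, 2.55, 1.91 and 1.72. Every probe was above 0 in both replicates, and the replicates parted most in the middle of the region, where replicate 1 dipped. In 2 of the probes there, at least 1 spot was not well above background, and the median input was low, at 8.10 and 7.17 on the log2 scale against 9.70 and 9.43 over the locus. The part of the low input in these ratios was not tested. Limma called 6 of the 7 probes, the lowest adjusted p being 0.00187 at chr3L:12689208-12689257. On arm 3L, 5 of the 3339 regions (0.150%) had a higher mean. The region was found under all 14 alternative settings, those with a mean p-value below 0.001 and with each replicate alone among them.

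The other region found under every alternative was the third by mean, on the ara-caup side at chr3L:12602448-12603291 (844 bp, 12 probes), with 0.80 in replicate 1 and 1.06 in replicate 2 (0.93 ± 0.19). Its high probes lay mainly in 2 groups. In the right-hand one the probe at chr3L:12602970-12603019 gave 2.03 and 2.00 (limma adjusted p = 0.00101) and its right neighbour 1.76 and 1.87, so that the replicates were nearly equal there. In the left-hand one the probe at chr3L:12602510-12602559 gave 1.34 and 2.53. Between them lay probes near or below 0 and an enriched probe of low input. This enriched probe, at chr3L:12602708-12602757, gave 1.16 and 1.07 (limma adjusted p = 0.00945), with input of 6.22 and 6.37. The lowest probe, at chr3L:12602778-12602827, gave -1.56 and -0.62 and was called depleted (limma adjusted p = 0.0204). The high probes at the left and right were thus separated by an uneven stretch. Its lowest probe was below 0 in both replicates, with input of 11.23 and 10.24, above the median of the locus.

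The second region by mean, chr3L:12690069-12690451 (383 bp), lay 482 bp to the right of the strongest one. It had 0.96 in replicate 1 and 1.06 in replicate 2 (1.01 ± 0.06), and 4 of its 6 probes were enriched. The replicates were close here, yet replicate 1 alone did not give the region. The fourth, chr3L:12682145-12682398 (254 bp), had 0.97 and 0.87 (0.92 ± 0.07), and 3 of its 4 probes were enriched. The fifth, chr3L:12707764-12708011 (248 bp, the shortest of all), lay near the right end of the locus with 1.13 and 0.68 (0.90 ± 0.32), and replicate 1 was the higher. The sixth, chr3L:12618647-12619018 (372 bp), was on the ara-caup side with 0.77 and 1.03 (0.90 ± 0.18). The fourth to sixth were short, with 4, 4 and 5 probes, so none could meet a minimum of 6 significant probes. Each was lost at a mean p-value below 0.01. Replicate 1 alone did not give the fourth or the sixth, and replicate 2 alone did not give the fifth. Their order was not the same in the 2 replicates.

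**Figure D4:**
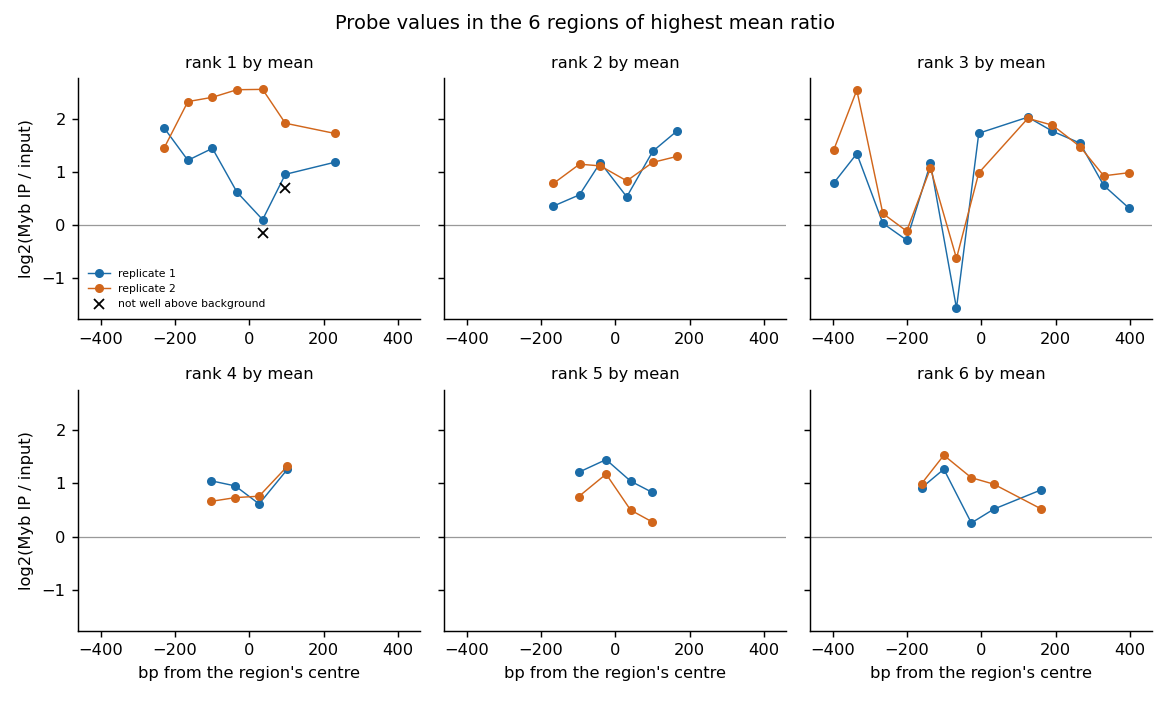
log2(Myb IP / input) of each probe in the 6 regions of highest mean, in replicate 1 (blue) and replicate 2 (orange), against the distance in bp of the probe's centre from the centre of the region. Crosses mark probes with a spot not well above background. In the region of rank 1 replicate 2 reaches 2.55 where replicate 1 falls to 0.10, and the region of rank 3 has a dip to -1.56 and -0.62.

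Of the 6 regions, 4 lay on the mirr side, and 3 of these fell in 1 dense cluster, which was picked out after the values were seen. From chr3L:12682145 to 12691432, 9.29 kb, 6 bound regions followed each other with gaps of 342 to 738 bp and covered 73.9% of the DNA. The mean over its 120 probes was 0.44 in replicate 1 and 0.81 in replicate 2 (0.62 ± 0.26). Enriched were 48 probes (40.0%), against 9.77% over all probes. None of the 48 lay in the last of the 6 regions. The cluster includes the 2830-bp region chr3L:12685510-12688339, in which 19 of 36 probes were enriched and which holds the highest probe of the locus.

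The longest region, chr3L:12661970-12664947 (2978 bp, 39 probes), also lay on the mirr side, about 28.2 kb from the left end of lncRNA:CR32111. Replicate 1 gave a mean of 0.38 and replicate 2 one of 1.14 (0.76 ± 0.54), and 19 of its 39 probes were enriched. Replicate 2 was the higher at 38 of the 39 probes, and the region was not called in replicate 1 alone. Its highest probe, at chr3L:12663516-12663565, gave 1.18 and 2.18 (limma adjusted p = 0.00332). The region was thus stronger in replicate 2, where single probes still ran from -0.02 to 2.18.

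At lncRNA:CR32111 the replicates differed. Over the 513 bp of the transcript the mean was 0.19 in replicate 1 and 0.02 in replicate 2 (0.11 ± 0.12), and none of its 6 probes was enriched. Within 500 bp of its left end the mean was 0.27 and -0.05 (0.11 ± 0.23, 13 probes, none enriched), and within 500 bp of its right end 0.36 and -0.04 (0.16 ± 0.28, 12 probes, 1 enriched). The replicates fell on opposite sides of 0 at each end, with replicate 1 above its mean over the locus (0.15) and replicate 2 below its own (0.34). The windows at the ends overlap and both hold all 6 probes of the transcript, so they are not separate observations. The nearest bound region on the left, chr3L:12632962-12633279, was 1.98 kb away, and had 0.87 and 0.44 (0.65 ± 0.30) with no enriched probe by limma and no call in either replicate alone. The nearest on the right, chr3L:12646665-12646980, was 10.9 kb away, with 0.50 and 1.06 (0.78 ± 0.39) and 4 of 5 probes enriched.

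The transcript lay within a wider stretch of low signal in the middle of the locus, again picked out after the values were seen. Between chr3L:12621272 and 12646664, 25.4 kb, the region left of the transcript was the only one. The mean over 332 probes was -0.06 in replicate 1 and 0.06 in replicate 2 (0.00 ± 0.08). Here 13 probes (3.92%) were enriched and 18 (5.42%) depleted, against 9.77% and 3.86% over all probes. The 18 include the 4 probes of the depleted region described below, where neither channel was well above background. Gaps between neighbouring regions had a median of 1.71 kb in the locus, and 3 of them were above 10 kb, both gaps beside this region and 1 of 14.4 kb on the ara-caup side that starts at 12588002. On arm 3L 12.8% of gaps were above 10 kb, so such gaps were common on the arm.

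In 10-kb windows the highest mean was that of 12.68 to 12.69 Mb, on the mirr side, with 0.34 in replicate 1 and 0.72 in replicate 2 (0.53 ± 0.27) and 45 of 129 probes enriched. The second was 12.60 to 12.61 Mb, on the ara-caup side, with 0.36 and 0.54 (0.45 ± 0.13) and 38 of 129 probes enriched. Each side thus held 1 of the top windows, and their order was the opposite in replicate 1. The lowest window was 12.62 to 12.63 Mb, with -0.12 and 0.09 (-0.02 ± 0.15), and the next lowest 12.64 to 12.65 Mb, with -0.05 and 0.17 (0.06 ± 0.15). Of the 15 windows, 14 were above the median of the 2385 windows of arm 3L (0.05), 5 above its upper quartile (0.32) and none above the level that only the highest 10% of the arm's windows passed (0.56). The windows of the locus thus ranged from about the arm's median to well above it, and none was as strong as the arm's highest. Replicate 2 was the higher in all 15 windows.

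**Figure D5:**
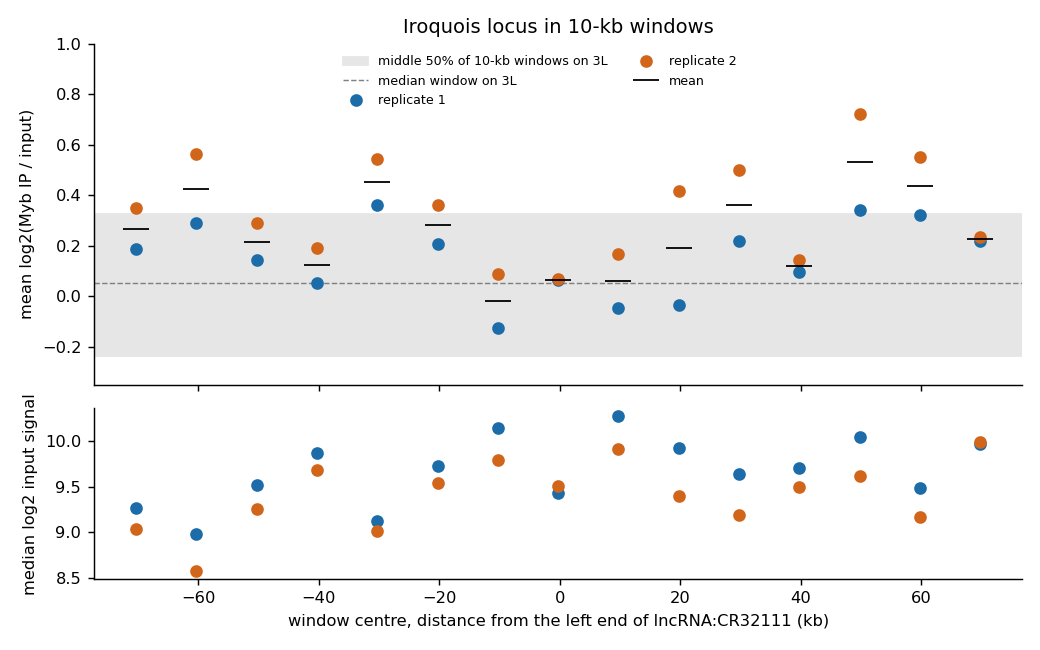
Upper panel, mean log2(Myb IP / input) of the 15 windows of 10 kb in replicate 1 (blue), replicate 2 (orange) and their mean (bar), against the distance of the window's centre from the left end of lncRNA:CR32111 in kb, with the middle 50% of windows on 3L in grey and their median dashed. Lower panel, median log2 input signal of the same windows. The 3 windows nearest the transcript have the lowest means, and the highest window lies 49.7 kb to its right.

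Input signal tended to be lower where the ratio was higher. Probes in bound regions of the locus had a median log2 input of 9.16 in replicate 1 and 8.79 in replicate 2, below the 9.84 and 9.57 of the other probes of the locus. On arm 3L the same gap was larger, at 9.31 and 8.97 inside regions against 10.30 and 10.13 outside. Across the 1957 probes the rank correlation of ratio with input was -0.19 in replicate 1 and -0.20 in replicate 2. Over the 15 windows of 10 kb, which average neighbouring probes of the same libraries, it was -0.51 and -0.57. Input is the denominator of the ratio, and its part in the regions was not tested.

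Depletion was rare and mostly not measurable. By limma 64 probes of the locus (3.27%) were depleted at an adjusted p below 0.05, against 3.86% over all probes. In 38 of the 64 neither channel was well above background in either replicate, so their ratios compare background with background. The single depleted region, chr3L:12632044-12632349 (306 bp, 4 probes, or 0.204% of the probes of the locus against 0.837% over the 6 arms), lay 2.91 kb to the left of lncRNA:CR32111, and all 4 of its probes were of this kind, so no ratio is given for it. Its median input was 2.95 and 2.84, against 9.70 and 9.43 over the locus. The region was found under 6 of 8 alternatives, and was absent when dim spots were left out and with the log2 table deposited by the authors.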

How the data were processed

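The locus, its windows and the alternatives were chosen with earlier results of these data known. The authors deposited 1 scanner file per array, whose processed intensities were, per the file headers, background-subtracted and dye-normalized by Agilent Feature Extraction version 11.5.1.1. The deposited log10 ratio of each spot served only as a check and was the same as the one computed here within 0.001 for 99.5% to 99.7% of spots. A joint table of both designs, deposited by the authors as log2 values in a column for each replicate, was an alternative. Its scaling is not stated, and each column was centred within its design.

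The log2 of Cy5 over Cy3 processed intensity was taken, spots marked as non-uniform or as population outliers were dropped, repeated spots were reduced to their mean and the median of every array was set to 0, with no loess step. limma 3.58.1 in R 4.3.3 fitted an intercept over all probes, and p-values measure only the spread between the 2 replicates. Regions followed the distances and thresholds of the neighbourhood rule in the study's methods, on the mean of both replicates. The p-values came from a null set here, so the regions are not the study's own peaks. There were 17945 such regions on the 6 arms, more than the Myb peaks that the paper reports genome-wide. A normal null was set by the mode and by the spread of the probes below it in each design, a probe was significant where its mean p-value with a neighbour within 1000 bp was below 0.05, and 4 such probes with gaps of at most 300 bp made a region. Both steps were run on simulated probes with independent noise as a check of the code. Neighbouring probes of the arrays are not independent, so these runs give no rate of false regions here. Named were every placed gene, the 6 regions of highest mean, the longest, those nearest a placed transcript, each depleted region and the 2 highest and 2 lowest windows. The highest single probes, the cluster and the low stretch were added after values were seen.

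Positions are those of the probe names, in dm3. No genome, promoter or probe sequence was used here, so no sequences are shown.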

Additional observations from a re-analysis of the deposited data

How the results depend on the processing

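The mean log2 ratio of the locus stayed above 0 under all 9 alternatives, between 0.15 and 0.37, and was 0.34 without replicate 1 and 0.15 without replicate 2. Leaving out 1 replicate only gives the mean of the other, and centring on the mode (0.37) adds a constant, so these are no check of stability. The other alternatives gave 0.18 to 0.29. The count of enriched probes ran from 202 with the deposited table to 391 with centring on the mode, in each case with a larger share in the locus than over all probes. The count of bound regions depended more on the setting, although centring on the mode shifts values and null alike and could not change it. It was 37 as reported, 28 to 47 under 9 alternatives, 24 with at least 6 significant probes, 11 at a mean p-value below 0.01, 2 at one below 0.001, and 12 for regions of replicate 1 that overlap one of replicate 2. Leaving out 1 replicate gave 16 to 47 regions, the lower count without replicate 2. The count of depleted probes was 64 as reported, 124 with normexp background correction, 31 with dim spots left out and 11 with the deposited table. Fewer spots enter when dim ones are left out, and the cause of none of these shifts was tested. Among the 10 alternatives, those that kept both replicates moved the values at both ends of lncRNA:CR32111 by less than the SD over replicates (0.23 and 0.28). Leaving out 1 of 2 replicates always moves a mean by less than this SD, so it is no check of stability. The left and right ends gave -0.05 and -0.04 without replicate 1, and 0.27 and 0.36 without replicate 2. No paired analysis was possible because the series has 1 group. Probe counts without 1 replicate were not run, since no residual degrees of freedom would be left. Promoter values of ara, caup and mirr were not run, since these genes were not placed on the build of the arrays.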
